A study of Mus musculus with 13 samples.

Results

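Nr4a3, Crem, Klf4, Gem and Pnrc1 are 5 genes grouped here as ones that can respond quickly to stimulation in some cells. Activation of the cells was not measured. They are described here in CD45-positive cells sorted from mouse EL4 tumours with and without PSGL-1. The genes were chosen by name among the 56923 gene IDs of the deposited count files, and each ID was matched to its symbol without the version number. Each of the 5 passed the filter on low counts and was tested. EL4, a T-lymphoma line of the mouse, carries CD45 as well, so the sort could hold tumour cells beside immune cells of the host. PSGL-1, the product of Selplg, is a protein of leukocytes that binds selectins. The series' title asks about the part of PSGL-1 on tumours in holding back macrophage phagocytosis.

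The 2 groups were 7 libraries from tumours of EL4 cells carrying a vector, titled Control, and 6 from tumours of EL4 cells with PSGL1 knocked out. The line is EL4 in every title, whereas the treatment labels count its number upwards from sample to sample, and the titles were used. In both, 500000 cells were placed under the skin of the right flank in mice aged 6 to 8 weeks, tumours were taken close to 20 days later, and total RNA of the sorted cells was sequenced. The knockout was in the injected cells. The labels do not give the strain or genotype of the mice, the number of knockout clones or whether each replicate number stands for a mouse of its own, and the p-values here reflect only how much these libraries vary, which may be technical. The file numbers start with 3 in 2 libraries of each group and with 7 in 5 vector and 4 PSGL1_KO libraries, and the labels do not say what the numbers mean.

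The depth over gene IDs ran from 3710817 to 5712566 counts (median 4584464). Mitochondrial IDs held 34.5% of these counts in vector replicate 5 and 10.0% to 17.8% in the other libraries. Over most of the genome, IDs named for genes that nearly every cell uses had almost no counts: 359 housekeeping IDs outside 4 stretches of the genome had a median level of 0.552 CPM, where CPM is the count per 1000000 counts of the library. Names are therefore used only inside those stretches, whose limits come from an earlier analysis of the same files that used levels of protein-coding IDs. There 10 of 10 housekeeping IDs reached 20 CPM, which was in part a condition of that choice. Nr4a3, Klf4, Gem and Pnrc1 lie in the stretch on chromosome 4, where 54.1% of 329 protein-coding IDs reached 20 CPM, against 17.0% outside the stretches. Crem is the outermost protein-coding gene of the stretch on chromosome 18, where 65.4% of 26 did, and that stretch holds 0 housekeeping IDs and so lacks the check. The IDs of Selplg, of Ptprc, which encodes CD45, and of the other NR4A genes, Nr4a1 and Nr4a2, lie outside, so neither the knockout nor the sort could be checked here.

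NR4A3 is an orphan nuclear receptor of the NR4A family, which is induced within minutes to hours of antigen receptor or cyclic AMP signalling and acts as a transcription factor without a known classical ligand. CREM belongs to the CREB family, whose members bind cyclic AMP response elements. An internal promoter of Crem gives ICER, a short inducible repressor, and counts per gene do not separate it from the longer forms. KLF4 is a zinc-finger factor linked to quiescence in T cells and to monocyte differentiation. GEM is not a transcription factor but a small GTP-binding protein of the RGK group, which inhibits calcium channels. PNRC1 is a coregulator of nuclear receptors that also binds the mRNA decapping machinery.

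The promoter of Nr4a3 is shown because cyclic AMP response elements, the sites of CREB-family proteins, are the best known inputs to NR4A genes. Klf4 is not an NR4A gene, and its promoter is printed beside that of Nr4a3 for comparison only. Both come from RefSeq on GRCm38.p6, which matched 3 of the 5 genes, Nr4a3, Klf4 and Pnrc1. Each line runs 5′ to 3′ on the strand of the gene and ends before the first exon base in GENCODE M21. Capitals mark the half-site TGACG or its reverse complement CGTCA. The first is chr4:48045055-48045152 on the plus strand and the second chr4:55532476-55532725 on the minus strand.
Nr4a3: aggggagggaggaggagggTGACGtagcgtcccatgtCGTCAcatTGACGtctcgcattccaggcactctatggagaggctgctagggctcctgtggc
Klf4: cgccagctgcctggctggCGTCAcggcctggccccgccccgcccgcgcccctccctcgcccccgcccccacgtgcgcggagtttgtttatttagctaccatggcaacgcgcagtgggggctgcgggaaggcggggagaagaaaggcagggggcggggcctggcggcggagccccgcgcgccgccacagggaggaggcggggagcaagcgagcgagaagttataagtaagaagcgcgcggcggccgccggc

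In the 250 bases before the RefSeq start, Nr4a3 held 4 half-sites. They begin 231, 213, 205 and 147 bases before the start, and the last lies beyond the stretch shown, inside a GENCODE exon. Among 32851 promoters of the same length, counting both strands, 17.8% held at least 1 half-site and 0.137% at least 4. Klf4 held 1 half-site, beginning 232 bases before the start, and these letters were not found in the window of Pnrc1, which is not printed. The full element TGACGTCA, which contains the half-site on both strands, was in 0 of the 3 windows and in 1.55% of all promoters. The element AAAGGTCA, bound by NR4A proteins as monomers, was also in 0 of the 3 and in 1.34% of all. A match describes letters only, and binding was not measured.

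Nr4a3 was higher in the PSGL1_KO tumours, while the other 4 genes did not pass the test over all 13 libraries. Nr4a3 (ENSMUSG00000028341.10, GRCm38 chromosome 4, 48045153 to 48086447, plus strand) was the scarcest of the 5. Levels are CPM normalised by TMM, the trimmed mean of M-values. Vector libraries had a lowest, median and highest level of 6.37, 8.28 and 10.7 CPM, from 27 to 44 counts, and PSGL1_KO libraries had 11.5, 18.0 and 23.2 CPM, from 62 to 137 counts. Each of the 6 PSGL1_KO libraries was above every vector library. It rose between means of 8.20 ± 1.43 CPM in vector (SD, n = 7) and 17.5 ± 4.42 CPM in PSGL1_KO libraries (SD, n = 6). This is a log2 fold change of PSGL1_KO over vector (log2FC) of 1.09 ± 0.20 (SE), or 2.14-fold, with adjusted p = 0.0011 in edgeR's quasi-likelihood test with Benjamini-Hochberg adjustment.

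That 1 of 5 genes passed in the higher direction and 0 in the lower has to be read against the background. Of all 10422 IDs tested, 8.99% were called higher and 5.24% lower, and of the 409 tested IDs in the stretches 20.3% were called higher and 4.89% lower. The share among the 5 genes is close to that of the stretches. Without an adjustment, 2 of the 5, Nr4a3 and Klf4, had p under 0.05. So did 2874 of the 10422 IDs and 161 of the 409 in the stretches, so this count too is close to that of the stretches. Complete separation of the groups upwards, as in Nr4a3, was found in 4.14% of all IDs and in 9.29% of those in the stretches.

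The rise of Nr4a3 was present in both sets of libraries. Among libraries of file number 7, vector levels ran from 6.37 to 10.7 CPM and PSGL1_KO levels from 11.5 to 23.2 CPM, and the log2FC was 1.00 (adjusted p = 0.0074). Among those of file number 3, vector libraries had 7.54 and 8.87 CPM and PSGL1_KO libraries 18.6 and 20.9 CPM, and the log2FC was 1.33 (adjusted p = 0.0011) on 2 libraries per group. The groups did not overlap in either set, which follows from their separation over all 13 libraries and adds nothing to it. With each library left out in turn, Nr4a3 passed every time, its log2FC lay between 0.97 and 1.18, and its adjusted p was between 0.00054 and 0.0059. The fit within file number 3 takes much of its estimate of spread from the other IDs, since its 4 libraries hold little information of their own.

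**Figure D1:**
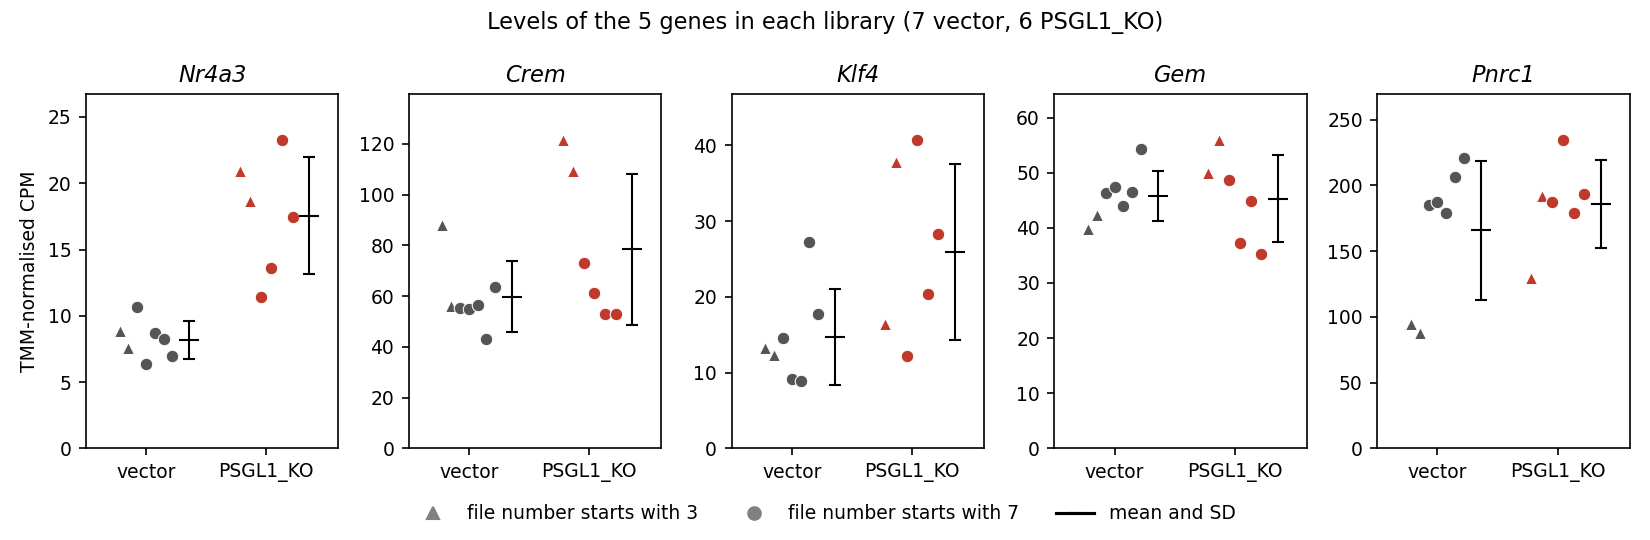
TMM-normalised CPM of Nr4a3, Crem, Klf4, Gem and Pnrc1 on the vertical axes, 1 point per library, for 7 vector and 6 PSGL1_KO libraries, with triangles for file numbers starting with 3, circles for those starting with 7, and bars for the mean and SD of each group. Nr4a3 separates the groups without overlap (6.37 to 10.7 CPM against 11.5 to 23.2 CPM), while 3 of the 4 triangles lie above every circle in Crem and 3 of the 4 below every circle in Pnrc1.

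Klf4 (ENSMUSG00000003032.9, GRCm38 chromosome 4, 55527143 to 55532466, minus strand) had the widest spread of the 5, with a coefficient of variation of 52.7% over all libraries. Its lowest, median and highest levels were 8.92, 13.2 and 27.3 CPM in vector and 12.2, 24.3 and 40.7 CPM in PSGL1_KO libraries, from 39 to 236 counts. PSGL1_KO replicates 4 and 2 were highest, at 40.7 and 37.8 CPM, followed by PSGL1_KO replicate 6 at 28.3 and vector replicate 6 at 27.3 CPM. The groups overlapped, since vector replicate 6 exceeded 3 of the PSGL1_KO libraries and PSGL1_KO replicate 3 had 12.2 CPM. Means were 14.7 ± 6.32 CPM (SD, n = 7) and 25.9 ± 11.6 CPM (SD, n = 6), and the log2FC was 0.81 ± 0.30 (95% interval 0.18 to 1.44) with adjusted p = 0.079 in the edgeR test.

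The call for Klf4 hung on the setting, although its direction did not. With the first digit of the file number as a covariate it passed (0.82, adjusted p = 0.049), as did Nr4a3, so that 2 of the 5 genes were then called higher, where 13.8% of all IDs and 30.3% of those in the stretches were. It also passed without vector replicate 6 (1.02, adjusted p = 0.028) and without PSGL1_KO replicate 3 (0.94, adjusted p = 0.036). Within file number 3 the log2FC was 1.14 with adjusted p = 0.0032, and within file number 7 it was 0.70 with adjusted p = 0.2.

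Markers of fibroblasts, cells that can also express Klf4, are given beside it. Of 10 fibroblast markers, 5 lie in the stretches: Col1a2, Col15a1, Tpm2, Sdc2 and Matn2. Their summed level was 695 to 2287 CPM in vector and 825 to 4341 CPM in PSGL1_KO libraries, and none of the 5 was at 0 in a group mean. The 4 PSGL1_KO libraries with the most Klf4, replicates 4, 2, 6 and 5, had fibroblast sums of 4341, 3281, 3451 and 3384 CPM, and replicates 1 and 3, with the least, had 1684 and 825 CPM. This sum is mostly Col1a2, a collagen gene, which made up 76.4% to 95.1% of it over the 13 libraries. The other 4 markers summed to 104, 162, 121, 283, 390 and 218 CPM in PSGL1_KO replicates 1 to 6. In this order replicate 5 came first and replicate 2 only the fourth. Replicates 1 and 2 are of file number 3. In the edgeR test of file number 7 against 3, Col15a1 and Tpm2 had 0.93 and 1.08 (adjusted p = 0.029 and 0.031). Sdc2 and Matn2 had -0.71 and -0.74 (adjusted p = 0.044 and 0.033). In that comparison 43.8% of IDs in the stretches were called. In the vector group the order differed: replicate 6 had the most Klf4 and a sum of 1433 CPM, the fifth of 7. Vector replicate 5, the library with the largest mitochondrial share, had the least Klf4, 8.92 CPM, and the lowest sum, 695 CPM. Of that sum 530 CPM was Col1a2. Its other 4 markers came to 164.2 CPM, the highest of the 7 vector libraries, which ran from 106 CPM upwards. Of the 5 markers 1 passed, where 20.3% of IDs in the stretches were called higher. It was Sdc2, which encodes a cell-surface proteoglycan, with a log2FC of 0.98 and adjusted p = 0.048 (0.092 with scaling on the nuclear genes of the stretches), and Col1a2 had 0.88 with adjusted p = 0.09. In bulk RNA a change in the number of such cells and a change of RNA per cell cannot be told apart, and the part of fibroblasts in the Klf4 values was not tested.

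Crem (ENSMUSG00000063889.17, GRCm38 chromosome 18, 3266048 to 3337748, minus strand) was set apart by file number more than by group. Its lowest, median and highest levels were 43.0, 56.3 and 88.2 CPM in vector and 52.9, 67.2 and 121 CPM in PSGL1_KO libraries. The 3 highest values all came from file number 3: 121 CPM in PSGL1_KO replicate 1, 109 CPM in PSGL1_KO replicate 2 and 88.2 CPM in vector replicate 1. The groups overlapped, and the log2FC was 0.39 ± 0.22 (95% interval -0.06 to 0.84) with adjusted p = 0.25. Its exons share 472 bases with Gm6225, a noncoding gene on the opposite strand, and the strand setting of the counting is not given in the sources used here.

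Within file number 3 Crem passed, at 88.2 and 56.3 CPM in vector against 121 and 109 CPM in PSGL1_KO, and this log2FC of 0.75 (adjusted p = 0.0031) rests on 2 libraries per group. Within file number 7 it had 54.7 ± 7.46 CPM (SD, n = 5) in vector and 60.1 ± 9.46 CPM (SD, n = 4) in PSGL1_KO libraries, where the log2FC was 0.14 (adjusted p = 0.56). The difference between these 2 values was itself tested and did not pass, at -0.54 (95% interval -1.11 to 0.03, adjusted p = 0.3).

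Pnrc1 (ENSMUSG00000040128.10, GRCm38 chromosome 4, 33245423 to 33290163, minus strand) had the most counts of the 5 genes, 373 to 1360 per library. Its lowest, median and highest levels were 87.9, 185 and 221 CPM in vector and 129, 190 and 234 CPM in PSGL1_KO libraries. Vector replicates 1 and 2, both of file number 3, stood at 94.5 and 87.9 CPM, well under the other vector libraries, which ran from 179 to 221 CPM. Over all libraries the log2FC was 0.16 (95% interval -0.28 to 0.61) with adjusted p = 0.67, and with scaling on the nuclear genes of the stretches it was -0.01, so its direction is not settled.

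Within file number 3 Pnrc1 was higher in PSGL1_KO, at 129 and 192 CPM against 94.5 and 87.9 CPM, and the log2FC was 0.88 (adjusted p = 0.00029) on 2 libraries per group. Within file number 7 the means were nearly equal, 196 ± 17.5 CPM (SD, n = 5) in vector and 198 ± 24.7 CPM (SD, n = 4) in PSGL1_KO libraries, with a log2FC of 0.02 (95% interval -0.23 to 0.27) and adjusted p = 0.93. The test of the difference gave -0.80 (95% interval -1.28 to -0.31), with adjusted p = 0.074, and did not pass.

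Gem (ENSMUSG00000028214.14, GRCm38 chromosome 4, 11704457 to 11714752, plus strand) was the steadiest of the 5, with a coefficient of variation of 13.3%. Its lowest, median and highest levels were 39.8, 46.4 and 54.3 CPM in vector and 35.3, 46.7 and 55.9 CPM in PSGL1_KO libraries, so the ranges lay over each other. The log2FC was -0.02 (95% interval -0.33 to 0.29) with adjusted p = 0.96 and changed sign with single libraries left out. This interval does not hold a doubling or a halving. Within file number 3 the log2FC was 0.42, within file number 7 it was -0.20, and neither passed, with adjusted p of 0.17 and 0.34.

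**Figure D2:**
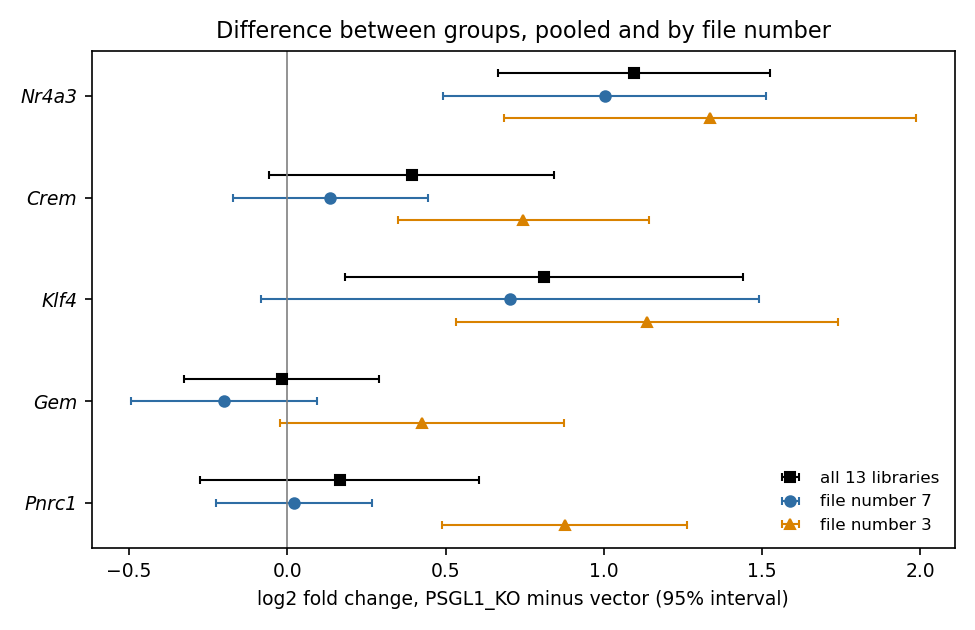
Log2 fold change of PSGL1_KO over vector with its 95% interval on the horizontal axis for each of the 5 genes, from all 13 libraries (squares), the 9 libraries of file number 7 (circles) and the 4 of file number 3 (triangles). The intervals of Nr4a3 lie above 0 in all 3 fits, and the value for file number 3 is the higher one in every gene, from 0.42 in Gem to 1.33 in Nr4a3. The share of all IDs with this order was not computed.

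Taking the 2 sets apart, 4 of the 5 genes passed within file number 3, all of them higher in PSGL1_KO, and 1 of 5, Nr4a3, within file number 7. Within file number 3, 13.3% of all IDs and 33.6% of those in the stretches were called higher, and within file number 7, 11.6% and 23.5%. All 5 differences were lower within file number 7 than within file number 3. How many of all IDs had this order was not computed, so it is not read as a trait of the 5 genes. In the edgeR test of that difference 0 of 5 passed after adjustment, where 1.87% of all IDs and 1.96% of those in the stretches did. Without an adjustment 2 of 5, Gem and Pnrc1, had p under 0.05 in that test, at 0.032 and 0.0026. The share of IDs under 0.05 without adjustment was not computed for it, so these 2 have no background to be read against.

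Between the file numbers themselves, with the group in the model, Crem and Pnrc1 differed and did so in opposite directions. Crem had 93.8 ± 28.6 CPM (SD, n = 4) in libraries of file number 3 and 57.1 ± 8.33 CPM (SD, n = 9) in those of number 7, a log2 difference of -0.67 ± 0.15 (SE) with adjusted p = 0.0011. Pnrc1 had 126 ± 47.7 CPM (SD, n = 4) and 197 ± 19.6 CPM (SD, n = 9), a log2 difference of 0.69 ± 0.15 (SE) with adjusted p = 0.0012. Of all IDs, 39.9% were called in this comparison, and of those in the stretches 43.8%, so 2 of 5 is close to the background. Nr4a3, Klf4 and Gem had log2 differences of -0.14, 0.09 and -0.07 and adjusted p of 0.61, 0.84 and 0.72, and each of these 3 changed sign under another scaling or without single libraries.

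Levels can be set between genes only per length of exon, here the merged exons of all transcripts in GENCODE M21, which counts rarely used exons as fully as common ones. In vector libraries the order of mean levels per kilobase was Pnrc1 with 79.2 CPM per kilobase, Gem with 21.8, then Crem, Klf4 with 4.83 and Nr4a3 with 1.37. Klf4 and Crem overlapped across vector libraries, at 2.93 to 8.94 and 7.30 to 15.0 CPM per kilobase, and the other neighbours did not. In PSGL1_KO libraries the order was the same, with 88.7, 21.5, 13.3, 8.51 and 2.93 CPM per kilobase. There Klf4 also overlapped with Crem, and Crem, with up to 20.6, overlapped with Gem, which started at 16.8.

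The 5 genes did not share a pattern across libraries. Likeness was measured as the mean absolute difference between centred profiles of log2(CPM + 1) over the 13 libraries, against 408 other tested IDs in the stretches. All profiles share the depth, group and file number of the libraries. For Nr4a3, Klf4 was the 182nd nearest, Crem the 105th, Gem the 226th and Pnrc1 the 285th. The nearest pair by rank was Klf4 with Nr4a3 as its 55th, at 0.48 log2 units, where the median over the 408 IDs was 0.60.

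Other genes lay closer. Nearest to Nr4a3 were Tes, a LIM-domain protein of focal adhesions, at 0.19 log2 units, Tmem67, a protein of primary cilia, at 0.22, and Mdfic, a regulator of transcription, at 0.23, with a median of 0.50 over the 408 IDs. Since they were picked for following Nr4a3 from library to library, a difference between groups comes with the choice, and their levels are given only as a description. Tes had 17.9 ± 3.11 CPM in vector libraries (SD, n = 7) and 35.9 ± 7.35 CPM (SD, n = 6) in PSGL1_KO ones. Tmem67 had 17.2 ± 3.18 and 29.9 ± 4.39 CPM, and Mdfic 39.0 ± 5.52 and 88.1 ± 19.9 CPM. Tes and Tmem67 share exon bases with other annotated genes. Nearest to Klf4 were Jcad, a protein of endothelial cell junctions, at 0.27, and Slc44a1, a choline transporter, and Arid3c, a DNA-binding protein, both at 0.31. The group means of Jcad were 14.7 ± 3.11 CPM (vector) and 28.8 ± 8.41 CPM (PSGL1_KO).

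Nearest to Crem were Chmp5, of endosomal sorting, and Rida, a deaminase, both at 0.12, and Mrpl50, a mitochondrial ribosomal protein, at 0.13. The median was 0.40 over the 408 IDs. Between file numbers 7 and 3 these had log2 differences of -0.67, -0.70 and -0.64, beside -0.67 in Crem. Nearest to Pnrc1 were Anp32b, a histone chaperone, at 0.15, and Galt, of galactose metabolism, and Dap, both at 0.16, with a median of 0.48. Their log2 differences between file numbers were 0.83, 0.70 and 0.92, beside 0.69 in Pnrc1. As with Nr4a3, such differences come with the choice. Nearest to Gem were Rngtt, the mRNA capping enzyme, at 0.11, and Mms22l and Zfp706, both at 0.12, with a median of 0.34.

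Lists of related genes reached few names in the stretches. Of 48 immediate-early genes, 5 had a checked name, and these were the 5 genes themselves, so this list adds nothing to their own values. Their median log2FC was 0.39, where all IDs tested had -0.01 and those in the stretches 0.18. The NR4A, Krüppel-like and RGK lists each came down to 1 gene, Nr4a3, Klf4 and Gem. Of 38 genes of CREB, ATF and cyclic AMP signalling, 6 had a checked name and 4 were tested, of which 2, Nr4a3 and Creb3, rose. With 4 genes such a count says little beside the 8.99% of all IDs and 20.3% of those in the stretches called higher, and the same holds for each short list that follows. Creb3, a membrane-bound CREB-family factor of the endoplasmic reticulum, had 88.4 ± 8.18 CPM in vector (SD, n = 7) and 139 ± 26.4 CPM in PSGL1_KO (SD, n = 6). Its log2FC was 0.65 (adjusted p = 0.0038), with every PSGL1_KO library above every vector library. Exons of Creb3 overlap those of Tln1 and Gba2, so its reads may be shared.

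In the list of signalling towards early genes, 4 of 40 were tested, of which 2 rose and 1 fell, where 20.3% of IDs in the stretches were called higher and 4.89% lower. Map3k8, the kinase TPL2 that activates the ERK pathway downstream of innate receptors, lies near Crem on chromosome 18 (4331327 to 4353015). It rose by 0.57 in log2FC (adjusted p = 0.019), with means of 107 ± 16.0 and 158 ± 35.2 CPM, and had 0.60 within file number 7 and 0.58 within file number 3. With scaling on the genes of the stretches it did not pass, at 0.41 and adjusted p = 0.11. Lyn, a kinase of the Src family, rose with a log2FC of 2.08, and Sit1, an adaptor of T-cell receptor signalling, fell by 1.00 on the log2 scale. Map3k7, the kinase TAK1, had 0.13 with adjusted p = 0.61. Of the mRNA decay list 2 of 24 were tested, Pnrc1 and Pabpc1. Pabpc1, for a protein that binds poly(A) tails, had -0.75 with adjusted p = 0.073, and with scaling on the nuclear genes of the stretches it passed, at -0.89 with adjusted p = 0.046.

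The broadest list held 41 nuclear regulators known to lie in or near the stretches. Of 31 tested, 6 were higher, 2 lower and 23 not called, with a median log2FC of 0.16. These shares lie near the 20.3% called higher and 4.89% called lower among tested IDs of the stretches, whose median was 0.18. Beside Nr4a3 and Creb3, the higher ones were Tfec of the macrophage lineage (1.42), Mdfic (1.17), Bach2 (1.19) and Chd7, a chromatin remodeller (0.85). Bach2, a transcriptional repressor found in lymphocytes, had only 1.81 and 4.11 CPM. The lower ones were Grhl2, an epithelial factor, with -0.65 and adjusted p = 0.0061, and Dlx6, a homeobox factor, with -1.89 and adjusted p = 0.0013, from means of 4.87 and 1.33 CPM. Each of these also passed with scaling on the nuclear genes of the stretches, and Epc1, a chromatin factor, then passed as lower (-0.35, adjusted p = 0.049). Exons of Bach2, Grhl2 and Dlx6 overlap other annotated genes. In this list Nr4a3 had the fourth highest log2FC, and Klf4, at 0.81, the highest of those not called.

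**Figure D3:**
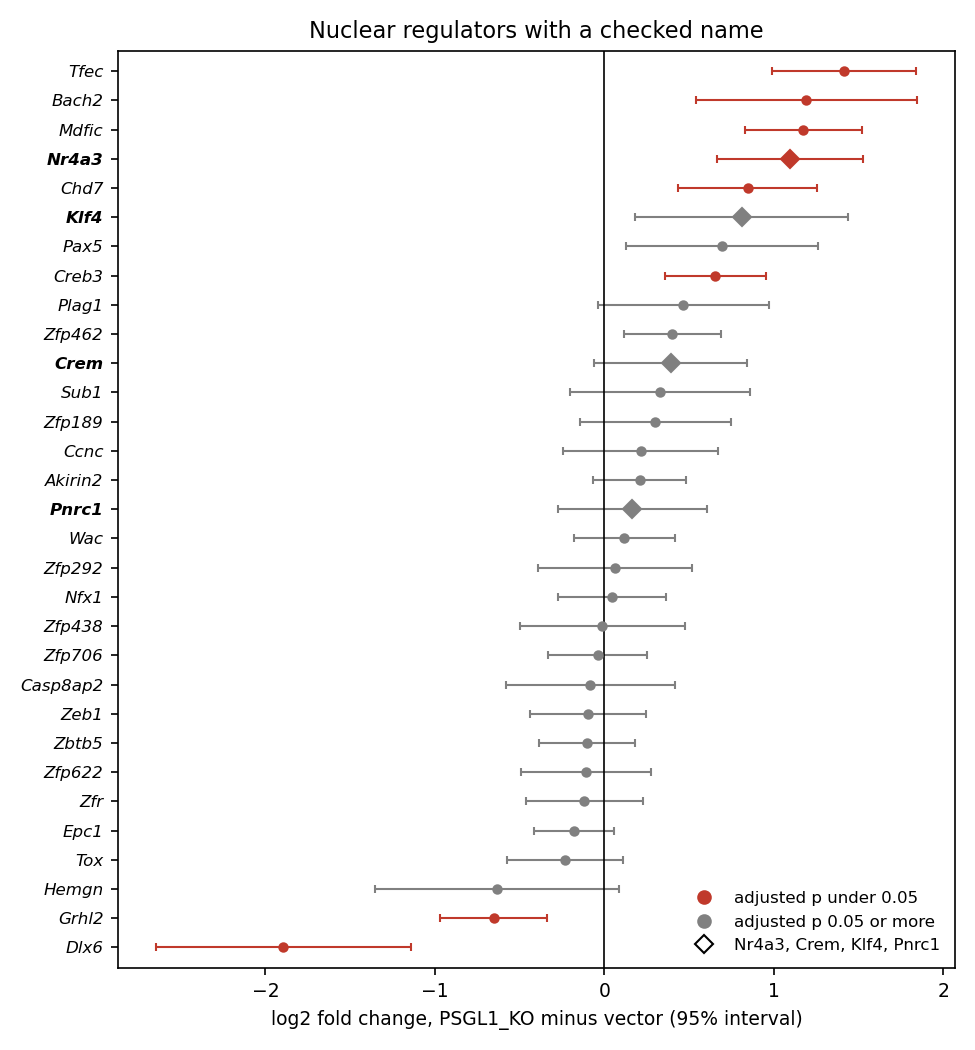
Log2 fold change of PSGL1_KO over vector with its 95% interval on the horizontal axis for the 31 tested nuclear regulators with a checked name, ordered by value on the vertical axis, in red where adjusted p was under 0.05 and with diamonds for Nr4a3, Crem, Klf4 and Pnrc1. Among these 31, 6 were called higher, Nr4a3 among them at 1.09, and Grhl2 and Dlx6 lower.

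Markers of the cell types that the sort could hold were few, and are to be read against the 20.3% of IDs in the stretches called higher and 4.89% called lower. Of the B-cell list 2 of 6 were tested: Cd72 rose, with a log2FC of 2.27, and Pax5 had 0.69 without passing. Of the macrophage list 2 of 10 were tested, Tfec and Atp6v0d2, and both rose, Atp6v0d2 with 1.00 (adjusted p = 0.028, and 0.084 with the other scaling). The summed levels were 29.4 to 78.2 CPM in vector and 148 to 323 CPM in PSGL1_KO for the B-cell list. For the macrophage list they were 24.5 to 81.1 and 90.1 to 216 CPM. Each of these sums is mostly 1 gene. Means in vector and PSGL1_KO were 47.7 and 230 CPM for Cd72, beside 8.05 and 13.1 CPM for Pax5. For Atp6v0d2 they were 55.2 and 110 CPM, beside 8.05 and 21.5 CPM for Tfec. Exons of Cd72 overlap those of Tesk1. Of the T-cell list 4 of 13 were tested, with 1 higher (Bach2), 1 lower (Sit1), and sums of 427 to 609 and 365 to 540 CPM. The endothelial pair Cav1 and Cav2 did not pass, with sums of 103 to 200 and 62.1 to 357 CPM, and the neutrophil, NK-cell and leukocyte lists had 0 names in the stretches. Nr4a3 and the B-cell and macrophage sums were all higher in PSGL1_KO libraries, which restates the difference between groups. Within PSGL1_KO, replicate 5 had the most Nr4a3, 23.2 CPM, the highest B-cell sum, 323 CPM, and the lowest macrophage sum, 90.1 CPM. Replicate 4, with the highest macrophage sum, 216 CPM, had 13.6 CPM of Nr4a3. Replicates 1 and 2 had 20.9 and 18.6 CPM of Nr4a3 and the lowest B-cell sums, 165 and 148 CPM. Both are of file number 3, as are vector replicates 1 and 2, which had the lowest B-cell sums of their group, 29.4 and 34.3 CPM. In the edgeR test of file number 7 against 3, Cd72 had a log2 difference of 1.09 (adjusted p = 9.0e-06). The B-cell sums thus differ by file number as well as by group. The part of these cells in the values of Nr4a3 was not tested.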

How the data were processed

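Per the labels, the 13 samples are RNA of sorted cells, and for each the authors deposited raw counts of reads per Ensembl gene ID. The submitters' processing notes name mm10 as the build and, as tools, HISAT2, SAMtools and HTSeq. Which versions, annotation release and strand setting were used is not given in the sources here. A file lists 56923 IDs, 52073 of them matched to a symbol, and 5 summary rows that entered neither library sizes nor tests. Of each file's total, 67.3% to 75.4% was in the row for reads outside any feature and 10.5% to 12.5% in the IDs. Positions are from GENCODE M21 (GRCm38, the assembly mm10).

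Counts were tested with edgeR 4.0.16 in R 4.3.3: quasi-likelihood test, robust dispersion, TMM factors over all IDs, filterByExpr, two-sided, Benjamini-Hochberg over 10422 IDs, threshold 0.05. The common biological coefficient of variation came to 29.5%. Intervals are 95%. The code was tested on simulated data. Group was the main term, and the leading digit of the file number was tested in another model with group, and its product with group in a further one. DESeq2 1.42.0, another scaling, no filter, the digit as covariate, each digit alone, a replicate block and leaving out each library were the alternatives. No libraries of a group agreed within sampling noise, the lowest mean chi-square per ID being 3.22.

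Over all IDs 937 were called higher and 546 lower. With TMM factors from the nuclear genes of the stretches, the median log2FC over all IDs moved from -0.01 to -0.18 and the calls to 627 higher and 1031 lower. The genes, lists, stretches and tests were chosen with earlier results of these data known. Named are the 5 genes, the 3 IDs nearest to each in pattern, and tested list members in the stretches, by name where they passed or belong to the early-gene, family and signalling lists; Pax5, Epc1, Cav1, Cav2 and the fibroblast markers other than Sdc2 were added after their values were seen.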

Additional observations from a re-analysis of the deposited data

Results flagged for a closer look

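Dixon's criterion for an outlying library was applied to 34 named genes in each group, 68 sets in all, and 2 sets met it, where chance gives about 1 in 20. Arid3c had 3.63 CPM in vector replicate 6, the library with the most Klf4 of its group, while the next vector library had 2.06 CPM and the lowest 1.37 CPM. Zfp706, a zinc-finger gene near Gem in pattern, had 1141 CPM in PSGL1_KO replicate 2, where the next had 888 CPM and the lowest 797 CPM. Neither value belongs to Nr4a3, Crem, Klf4, Gem or Pnrc1.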

How the results depend on the processing

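Nr4a3 kept its direction and stayed under the threshold in all of the alternatives run for PSGL1_KO against vector, with the lowest log2FC, 0.92, under scaling on the nuclear genes of the stretches. Leaving out each library in turn gave log2FC of 0.97 to 1.18 for Nr4a3, 0.23 to 0.48 for Crem, 0.61 to 1.02 for Klf4, -0.11 to 0.05 for Gem and 0.02 to 0.25 for Pnrc1. Klf4 passed without a filter on low counts (0.81), with the file-number covariate (0.82), with the replicate block (0.83) and within file number 3 (1.14), as did Crem (0.75) and Pnrc1 (0.88) within file number 3. Gem turned positive within file number 3 (0.42), and without any one of vector replicate 7 and PSGL1_KO replicates 4 and 6 (0.013, 0.0083 and 0.045). Pnrc1 turned to -0.0098 with the other scaling.

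IDs called higher in PSGL1_KO went from 937 to 1443 with the file-number covariate. IDs called lower went from 546 to 1031 with the other scaling, 1197 with the covariate, 940 within file number 7, 1011 within file number 3 and 908 with the replicate block. Without single libraries they were 690 to 957 higher and 424 to 661 lower. The replicate numbers do not pair the libraries: same-numbered libraries had correlations of their deviations from -0.05 to 0.60 over the 6 numbers, and the block leaves out vector replicate 7.

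Between file numbers, IDs called lower in number 7 went from 1772 to 1118 with the other scaling. Without single libraries 1857 to 2682 were higher and 1290 to 1852 lower. The log2 differences then ran from -0.85 to -0.58 for Crem and 0.56 to 0.95 for Pnrc1, and both passed each time. They ran from -0.23 to -0.04 for Nr4a3, -0.08 to 0.45 for Klf4 and -0.16 to 0.07 for Gem. With the other scaling Nr4a3 turned to 0.044 and Gem to 0.11. Klf4 turned to -0.030, -0.076 and -0.036 without vector replicate 6 or PSGL1_KO replicates 1 or 4, and Gem to 0.069 without PSGL1_KO replicate 2. The cause of these changes was not tested. Nr4a3 rests on 27 to 137 counts per library, which limits its precision.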
